A study of Mus musculus with 8 samples.

Results

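The macrophage and monocyte genes form a list of 35 symbols, chosen by name from genes known in macrophages and monocytes and looked up in the gene tables of T cells sorted from mouse tumors. For all sorted OT-I cells 34 of them were listed among 17495 genes, and for the Tim-3+ subset 33 of them among 13126 rows. Clec7a in the former, and Cd163 and Lgmn in the latter, were not analysed here. Itgam had 2 rows in the Tim-3+ table, so that table gave 34 member rows.

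Polyadenylated RNA was sequenced from OT-I cells, CD8+ T cells with a transgenic receptor for an ovalbumin peptide, taken from B16-OVA tumors, a mouse melanoma line that makes ovalbumin. Naive OT-I cells of both genotypes, Zbtb32-/- (labelled knockout, KO) and WT, were given together to B6 mice, followed 1 day later by tumor cells under the skin, and were sorted from the tumors 30 days later. The comparison asks what loss of the zinc finger factor Zbtb32 changes in these cells. All 4 groups therefore came from OT-I cells in B6 hosts with B16-OVA tumors: all sorted OT-I cells labelled KO or WT, and the Tim-3+ subset that the labels name Ttex, terminally exhausted cells, labelled KO or WT. Each group had 2 libraries. The labels do not tie replicates to animals, so p-values measure the spread between these libraries, which may be technical. The age of the mice and the deleted part of Zbtb32 are not given in the sources used here.

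Macrophages and monocytes are phagocytes that take up dead cells, bound antibody complexes and microbes. They carry Fc and scavenger receptors, digest their cargo in lysosomes, and depend on growth factor receptors such as the product of Csf1r and on the transcription factor PU.1, the product of Spi1. In tumors they are a common neighbour of infiltrating T cells, and complement C1q and the lysozyme of Lyz2 are textbook products of macrophages.

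Libraries of all sorted OT-I cells held 18.56 to 21.05 M recovered reads, and those of the Ttex subset 51.6 to 59.2 M. Zbtb32 itself was at 94.9 and 73.0 FPKM (fragments per kilobase of transcript, scaled to library size) in KO-labelled all sorted OT-I cells against 79.8 and 87.1 FPKM in the WT-labelled ones. Its KO-labelled Ttex libraries held 6822 and 5715 normalized counts and the WT-labelled ones 3976 and 3951, a log2 difference of 0.66 that limma did not call (adjusted p = 0.183). It was lower in KO-labelled libraries in neither population, so groups are called by their labels throughout. All libraries had T cell genes at high level. In all sorted OT-I cells Cd8a stood between 303 and 418 FPKM, and Cd4 between 0.312 and 1.54 FPKM. In the Ttex libraries the summed level of 12 T cell genes was 187040 to 210625 normalized counts per kilobase.

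The promoters of 3 members are shown because these genes mark the extremes of the list: C1qb and C1qc were among the members with the largest decreases in all sorted OT-I cells, and Axl was the one tested member with a KO-labelled mean above the WT-labelled one there. C1qa, C1qb and C1qc lie side by side on the minus strand of chromosome 4 (mm10), C1qb from 136880129 to 136886187, C1qc from 136889804 to 136893065 and C1qa from 136895917 to 136898803. Each sequence runs from 250 bases before to 50 bases after the start, 5′ to 3′ on the gene's strand (RefSeq, GRCm38.p6), at chr4:136886151-136886450 for C1qb, chr4:136892865-136893164 for C1qc and chr7:25788684-25788983 for Axl, all minus strand. Capitals mark GAGGAA, the core of the sequence that PU.1 binds, or TTCCTC, the same letters on the other strand.
C1qb: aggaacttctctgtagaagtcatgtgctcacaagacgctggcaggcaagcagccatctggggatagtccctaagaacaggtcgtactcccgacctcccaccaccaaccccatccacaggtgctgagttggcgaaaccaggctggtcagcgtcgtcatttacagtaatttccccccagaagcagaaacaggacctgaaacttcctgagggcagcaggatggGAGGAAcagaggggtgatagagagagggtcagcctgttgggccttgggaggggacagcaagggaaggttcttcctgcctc
C1qc: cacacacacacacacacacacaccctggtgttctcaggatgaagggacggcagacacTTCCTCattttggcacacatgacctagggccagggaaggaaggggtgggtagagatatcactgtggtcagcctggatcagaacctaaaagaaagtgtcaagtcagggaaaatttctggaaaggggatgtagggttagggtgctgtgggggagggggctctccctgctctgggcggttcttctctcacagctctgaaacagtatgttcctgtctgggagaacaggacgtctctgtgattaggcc
Axl: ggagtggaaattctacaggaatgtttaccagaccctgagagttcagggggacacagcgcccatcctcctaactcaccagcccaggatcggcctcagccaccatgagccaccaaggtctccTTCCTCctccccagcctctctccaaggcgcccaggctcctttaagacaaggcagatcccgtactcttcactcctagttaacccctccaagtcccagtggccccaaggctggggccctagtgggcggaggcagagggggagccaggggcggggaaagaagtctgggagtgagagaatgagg
The motif was searched on both strands. At least 1 promoter held it in 18 of the 27 members with a listed promoter (66.7%), against 8446 of 27025 genes (31.3%), and it was found in 28.3% of all 32851 promoters of this length. All 3 promoters printed hold it, C1qb in one orientation and C1qc and Axl in the other, and their RNA values follow. A match of letters is a description and not a bound site.

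In all sorted OT-I cells most of the list was lower in the KO-labelled libraries. Of the 26 members with a mean of at least 1 FPKM, 23 were called lower and 0 higher by limma at an adjusted p under 0.05, where 30.4% of the 9574 tested genes were called lower and 2.45% higher. The other 8 members with a row were under that mean, and 7 of the 26 passed it with a KO-labelled mean under 1 FPKM, that is, through the WT-labelled libraries. They were C1qc, Csf1r, Adgre1, Spi1, Fcgr1, Cybb and Il1b, and the limma counts by role below include them, which favours lower calls. Without a need for that mean, edgeR on recovered whole reads tested all 34 and called 28 lower (15.8% of 15686 genes), and the authors' deposited table called 24 of the 34 lower (15.4% of 14781 genes). Both KO-labelled values lay below both WT-labelled ones in 24 of the 26 tested members, a pattern shown by 56.6% of tested genes. Over all 34 members with a row it held in 31, for which no share over all genes with a row was counted. The exceptions were Axl, Itgax and Cd163. The median log2 fold change was -1.18 over the 26 members and -0.24 over all tested genes. Scaling to the median gene, or by edgeR, brought the median of all genes to 0.01 and 0.03. Relative to the median gene, the limma decreases are about 0.24 smaller than printed. By edgeR the members' median was -1.43 over all 34, so that shift does not carry over to the edgeR values. In a bulk library, fewer cells of a type and less RNA per cell cannot be told apart.

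Complement C1q, which tags dead cells and immune complexes for uptake and is made largely by macrophages, showed the largest decreases by role. C1qb, one of the chains, was at 10.7 and 11.9 FPKM in KO-labelled and 52.2 and 50.9 FPKM in WT-labelled libraries, 4.54-fold lower (log2 fold change -2.09, limma adjusted p = 1.12e-21). C1qa stood at 8.56 and 7.32 against 36.3 and 35.6 FPKM (-2.05). Both genes had narrow replicates and groups far apart. C1qc, the remaining chain, was at 0.265 and 1.60 against 4.53 and 5.59 FPKM (-1.73). Its groups did not overlap, but the KO-labelled replicates, which rest on 11 and 72 recovered reads against 169 and 216, differed widely, and the authors' deposited table gives it a log2 fold change of -2.36 with an adjusted p of 0.116. The ratio of C1qa to C1qb was 0.796 and 0.613 in KO-labelled and 0.696 and 0.700 in WT-labelled libraries, so this ratio overlapped between the labels while both genes fell.

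Lysosomal and phagocyte effector genes had 6 of 6 tested members called lower, beside 30.4% of all tested genes. Cst3, which encodes the protease inhibitor cystatin C and is also made by other cell types, was the highest member, at 175 and 137 against 296 and 264 FPKM (log2 fold change -0.85, limma adjusted p = 0.00183). Lyz2, which encodes the lysozyme of myeloid cells, was at 26.4 and 19.1 against 78.3 and 72.0 FPKM (-1.70). Both were lower in both KO-labelled libraries, but Lyz2 by 3.30-fold and Cst3 by 1.79-fold. Cd68, a lysosomal membrane glycoprotein gene, was at 11.8 and 9.79 against 26.7 and 23.7 FPKM (-1.16). Lgmn, the gene of the lysosomal protease legumain, was at 5.17 and 4.80 against 12.1 and 15.2 FPKM (-1.28). Plbd1, a phospholipase B family gene, was at 1.06 and 0.980 against 4.22 and 4.42 FPKM (-1.40), and Cybb, a subunit of the phagocyte NADPH oxidase, was at 0.866 and 0.696 against 1.75 and 1.90 FPKM (-0.67). No pair of groups overlapped among these genes. Cst3 lost its call without WT-labelled replicate 1 (-0.76, limma adjusted p = 0.215) or replicate 2 (-0.93, adjusted p = 0.0823). Mpeg1, which encodes the pore-forming perforin-2 of phagocytes, was under the mean of 1 FPKM, at 0.226 and 0.0794 against 0.656 and 0.853 FPKM.

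Fc receptors and the adaptors with an ITAM, the motif that passes on their signal, were called lower in 4 of 4 tested members. The share over all tested genes was 30.4%. Fcer1g, the gene of the common Fc receptor gamma chain, was at 31.1 and 19.8 against 80.8 and 60.6 FPKM (log2 fold change -1.46, limma adjusted p = 4.22e-10). Tyrobp, which encodes the adaptor DAP12 and is also used by NK cells, was at 7.75 and 5.998 against 33.3 and 28.3 FPKM (-2.02). Its gene lies on chromosome 7, 172 kb from the targeted gene Zbtb32, and a part of this position in its values was not tested. Tyrobp fell further than Fcer1g: their ratio was 0.249 and 0.303 in KO-labelled and 0.412 and 0.467 in WT-labelled libraries, which did not overlap. Fcgr3, a low-affinity IgG receptor gene, was at 2.90 and 2.45 against 8.43 and 7.19 FPKM (-1.26). The high-affinity receptor gene Fcgr1 was at 0.360 and 0.449 against 2.06 and 1.58 FPKM (-1.001).

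Secreted proteins were called lower in 4 of 4 tested members, beside 30.4% of all tested genes. Wfdc17, a WAP-domain gene, was at 5.86 and 3.63 against 26.1 and 18.0 FPKM (log2 fold change -2.01, limma adjusted p = 3.14e-24). Apoe, which encodes the lipid carrier apolipoprotein E, was at 11.0 and 8.11 against 28.6 and 28.1 FPKM (-1.49). Pf4, the chemokine gene known also from platelets, was at 1.55 and 1.07 against 4.66 and 4.43 FPKM (-1.27). The groups of all 3 were separate. Il1b, the gene of the inflammatory cytokine interleukin 1 beta, was at 0.537 and 0.293 against 2.33 and 2.07 FPKM (-1.18), again with no overlap.

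Growth factor receptors and the lineage factor moved less on this scale, which understates the change of genes near 1 FPKM. Csf1r, the receptor gene for macrophage colony-stimulating factor, was at 0.629 and 0.887 against 1.42 and 2.25 FPKM (log2 fold change -0.68, limma adjusted p = 1.96e-05). Spi1, the gene of PU.1, was at 0.570 and 0.782 against 1.52 and 1.19 FPKM (-0.49). Csf2ra, a GM-CSF receptor chain gene, was at 3.05 and 1.77 against 3.30 and 4.19 FPKM (-0.50). The groups were separate, by a small margin in Csf2ra. Csf2ra lost the limma call without KO-labelled replicate 2 (-0.22, adjusted p = 0.503) or WT-labelled replicate 2 (-0.36, adjusted p = 0.150), and Spi1 without KO-labelled replicate 1 (-0.40, adjusted p = 0.0946). Neither gene was called by limma after scaling to the median gene or in the authors' deposited table, where their adjusted p-values are 0.166 and 0.102.

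Among surface and cytoplasmic identity markers, Aif1, which encodes the actin-binding protein Iba1, was at 2.77 and 2.84 against 8.17 and 6.98 FPKM (log2 fold change -1.17, limma adjusted p = 1.17e-10). Adgre1, the gene of the mouse macrophage antigen F4/80, was at 0.374 and 0.810 against 1.84 and 2.75 FPKM (-1.05). Ms4a6c, a four-span membrane protein gene, was at 1.66 and 1.72 against 2.88 and 2.63 FPKM (-0.48). Groups were separate in all 3. Ms4a6c lost its call without any 1 of 3 libraries, with limma adjusted p = 0.0639 without KO-labelled replicate 1, 0.0576 without KO-labelled replicate 2 and 0.0837 without WT-labelled replicate 1. Itgax, the integrin gene of CD11c, which activated T cells can also express, was at 1.21 and 1.30 against 1.27 and 1.38 FPKM, with overlapping groups (-0.04, 95% interval -0.32 to 0.23, limma adjusted p = 0.838). Ms4a7 and the CD11b integrin gene Itgam were under 1 FPKM on average. Ms4a7 was at 0.502 and 0.348 against 1.64 and 1.23 FPKM, and Itgam at 0.269 and 0.205 against 0.402 and 0.636 FPKM.

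Scavenger, lectin and pattern receptors had 2 members past the mean of 1 FPKM, and neither was called by limma. Axl, a receptor tyrosine kinase gene for dead-cell uptake that is also expressed outside macrophages, was at 7.17 and 6.07 in KO-labelled and 5.22 and 7.35 FPKM in WT-labelled libraries (log2 fold change 0.08, 95% interval -0.27 to 0.42, limma adjusted p = 0.770). Its groups overlapped fully. Cd14, the co-receptor gene for bacterial lipopolysaccharide, was at 2.02 and 1.37 against 2.27 and 2.51 FPKM (-0.34, limma adjusted p = 0.0619). The groups of Cd14 were separate by a small margin. The other members of this role with a row were under 1 FPKM on average and are given as levels. Without that mean, edgeR called 4 of the 7 members of the role lower, beside 15.8% of all genes. These were Mrc1 (log2 fold change -1.65), Msr1 (-1.56), Trem2 (-1.28) and Sirpa (-0.87), whereas Cd14, Axl and Cd163 were not called. Trem2, a lipid-sensing receptor gene of macrophages, was at 0.301 and 0.183 against 0.648 and 0.596 FPKM. Sirpa, which encodes the receptor of the CD47 signal, was at 0.626 and 0.543 against 0.980 and 1.29 FPKM. Both had the KO-labelled libraries below the WT-labelled ones. Msr1, a class A scavenger receptor gene, was at 0.235 and 0.149 against 0.677 and 0.520 FPKM, and Mrc1, the mannose receptor gene, at 0.102 and 0.162 against 0.357 and 0.541 FPKM. Cd163, the hemoglobin scavenger receptor gene, was at 0.188 and 0.102 against 0.142 and 0.0732 FPKM, on 8 to 22 recovered reads per library, and its groups overlapped.

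**Figure D1:**
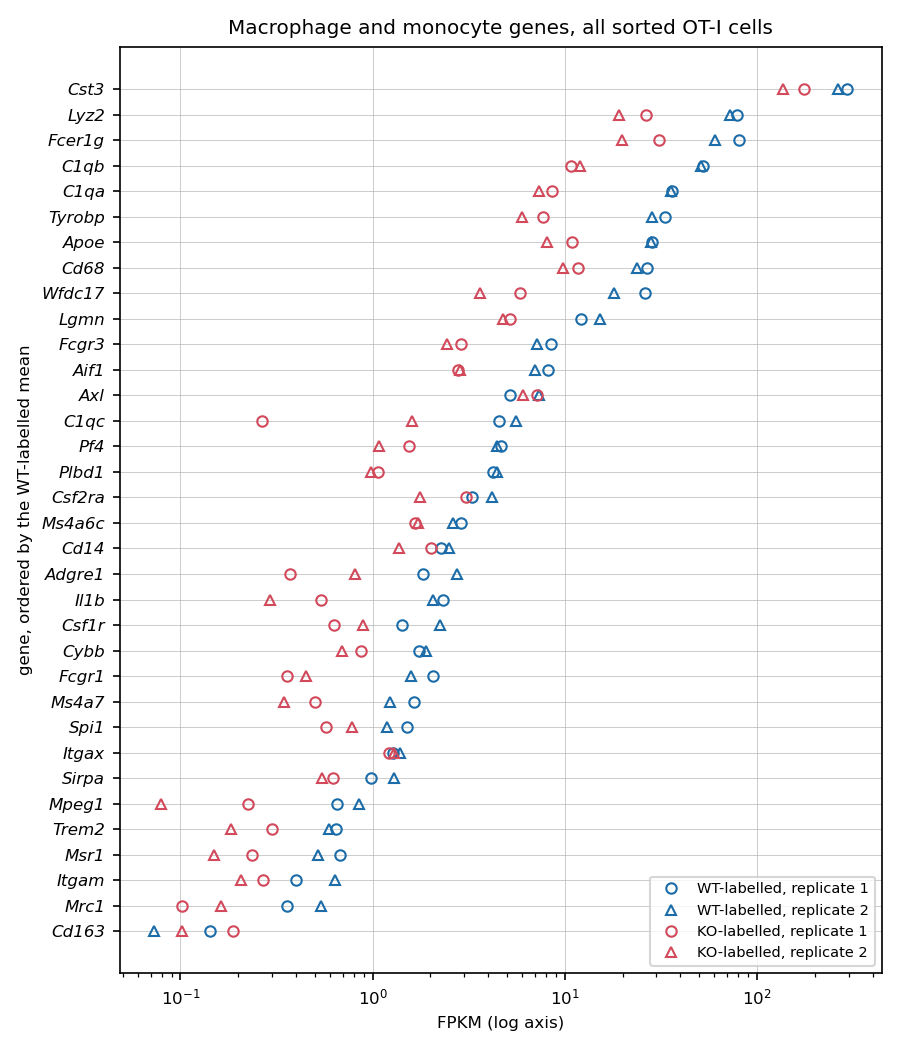
FPKM of each member with a row (log axis) in the 4 libraries of all sorted OT-I cells, with WT-labelled libraries in blue and KO-labelled ones in red. The red points lie left of the blue ones in 31 of 34 genes, and mix with them in Axl, Itgax and Cd163. Among tested genes, the pattern was shown by 24 of 26 members and by 56.6% of all.

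Whether the members moved by 1 common factor was described by the spread of their fold changes in all sorted OT-I cells. The log2 fold changes of the 26 tested members ran from -2.09 to 0.08 with an SD of 0.61, and the middle of the list lay between -1.48 and -0.67. The median SE of a member was 0.16. The 95% interval of a member's fold change held the list's median in 12 of the 26, lay wholly above it in 8 and wholly below it in 6. These intervals use the spread of genes at the same level, since limma took its spread wholly from the trend, and not the gene's own replicates. Adding 1 before the log also brings genes near 1 FPKM toward 0, so these limma counts cannot separate a common factor from level. Cybb, 2.33-fold lower, had -0.67 and lay above the median, whereas Cd68, 2.34-fold lower, had -1.16. By edgeR on recovered reads the interval held the median of -1.43 in 19 of 34 members, with 8 above and 7 below. The edgeR intervals were scaled from the SE by a normal distribution. With 2 libraries per group they are narrower than 95% intervals, so the counts above and below may be too high. In neither fit did the intervals of all members hold the median. Medians by role were -2.05 for C1q, -1.38 for secreted proteins, -1.36 for Fc receptors and adaptors, -1.22 for lysosomal genes, -0.76 for identity markers, -0.50 for growth factor receptors and Spi1, and -0.13 for the 2 tested scavenger and pattern receptors, where pseudocount and level also enter. By edgeR the medians were -2.09 for C1q, -1.92 for secreted proteins, -1.76 for Fc receptors and adaptors, and -1.36 for lysosomal genes. Identity markers were at -1.19, growth factor receptors and Spi1 at -0.90, and 7 scavenger and pattern receptors at -0.87. The edgeR median over all 34 was -1.43. The ratio of Lyz2 to Cst3 was 0.151 and 0.140 in KO-labelled against 0.265 and 0.273 in WT-labelled libraries. The ratio of C1qa to Axl was 1.19 and 1.21 against 6.95 and 4.85. In both ratios the groups were separate, unlike in the ratio of C1qa to C1qb.

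In Ttex cells most members had the higher mean in the KO-labelled libraries, but hardly any difference passed the test without pairing by replicate number. By limma 0 of the 34 member rows were called in either direction, where 0.0159% of the 12559 tested genes were called higher and 0.00796% lower. At an unadjusted p under 0.05, 19 member rows were higher and 0 lower, against 6.78% and 7.46% of all tested genes. By edgeR on recovered reads 1 member row, Plbd1, was called higher (0.119% of tested genes). When libraries were paired by replicate number, limma called 15 member rows higher and 0 lower, beside 3.61% and 3.11% of all tested genes. The labels do not give this pairing. Both KO-labelled libraries exceeded both WT-labelled ones in 26 member rows, a pattern of 19.9% of tested genes, and stood below them in 1, against 28.2% of tested genes. The median log2 fold change was 0.80 over the member rows and -0.06 over all tested genes.

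Members with high levels in Ttex cells are given in normalized counts, KO-labelled first, and Itgax and Axl, also high, follow further below. None of them passed the limma threshold without pairing by replicate number. Cst3 stood at 13662 and 11163 against 7040 and 5895 (0.94 on the log2 scale, limma adjusted p = 0.136). Lyz2 was at 9110 and 7017 against 4935 and 4640 (0.74). Apoe was at 4673 and 4313 against 2211 and 2131 (1.05, limma adjusted p = 0.0728). Cd68 was at 2963 and 2485 against 1857 and 1807 (0.57). In each of these genes the groups were separate, with the KO-labelled libraries high. C1qb was at 2311 and 2877 normalized counts against 1261 and 1094 (1.13), C1qa at 1342 and 1140 against 668 and 508 (1.09), and C1qc at 1498 and 1488 against 897 and 700 (0.91). The C1q groups were separate too, and the KO-labelled replicates of C1qc were close. Tyrobp was at 2522 and 1302 against 1029 and 738 normalized counts (1.06), and Fcer1g at 2566 and 1539 against 1172 and 983 (0.89), with KO-labelled replicate 1 well above replicate 2 in both.

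The largest fold changes in Ttex cells were those of Plbd1, at 1205 and 1169 against 370 and 320 normalized counts (log2 fold change 1.78, limma adjusted p = 0.0622), and Wfdc17, at 1872 and 1162 against 482 and 440 (1.68, limma adjusted p = 0.132). For Plbd1 the edgeR adjusted p was 0.0496. Ms4a7 was at 433 and 374 against 173 and 137 (1.38), and Mpeg1 at 1048 and 1050 against 451 and 429 (1.25). All 4 had separate groups. Il1b was at 426 and 141 against 141 and 46.2 normalized counts (1.59), where KO-labelled replicate 2 was near WT-labelled replicate 1. Spi1 was at 650 and 750 against 436 and 267 (1.03), Csf1r at 571 and 467 against 264 and 280 (0.92), and Sirpa at 915 and 1146 against 509 and 641 (0.84), each with separate groups. Clec7a, the gene of the beta-glucan receptor Dectin-1, was at 366 and 508 against 275 and 236 normalized counts (0.76).

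The members that were not lower or not called in all sorted OT-I cells, and those with uneven replicates, had these values in Ttex cells. Axl was at 1536 and 1669 against 1486 and 1433 normalized counts (0.13, 95% interval -0.23 to 0.49), separate by a small margin. Itgax was at 1994 and 1753 against 1448 and 1209 (0.50, 95% interval 0.09 to 0.90, limma adjusted p = 0.296), with KO-labelled libraries higher and separate. Cd14 was at 88.4 and 113 against 131 and 113 (-0.28), the single member row with both KO-labelled values lower, by a small margin. Mrc1 was at 14.0 and 116 against 54.6 and 87.6 normalized counts, and Msr1 at 44.2 and 185 against 96.1 and 171. KO-labelled replicate 1 was the lowest library in both, and without it their log2 fold changes were 0.73 and 0.52 in place of -0.75 and -0.50. The 2 Itgam rows stood at 238 and 473 against 102 and 255, and at 122 and 7.11 against 154 and 2.83, overlapping in both (1.05 and 0.37). The remaining members, Adgre1, Fcgr3, Fcgr1, Aif1, Cybb, Ms4a6c, Trem2, Pf4 and Csf2ra, had log2 fold changes between 0.16 and 1.05.

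**Figure D2:**
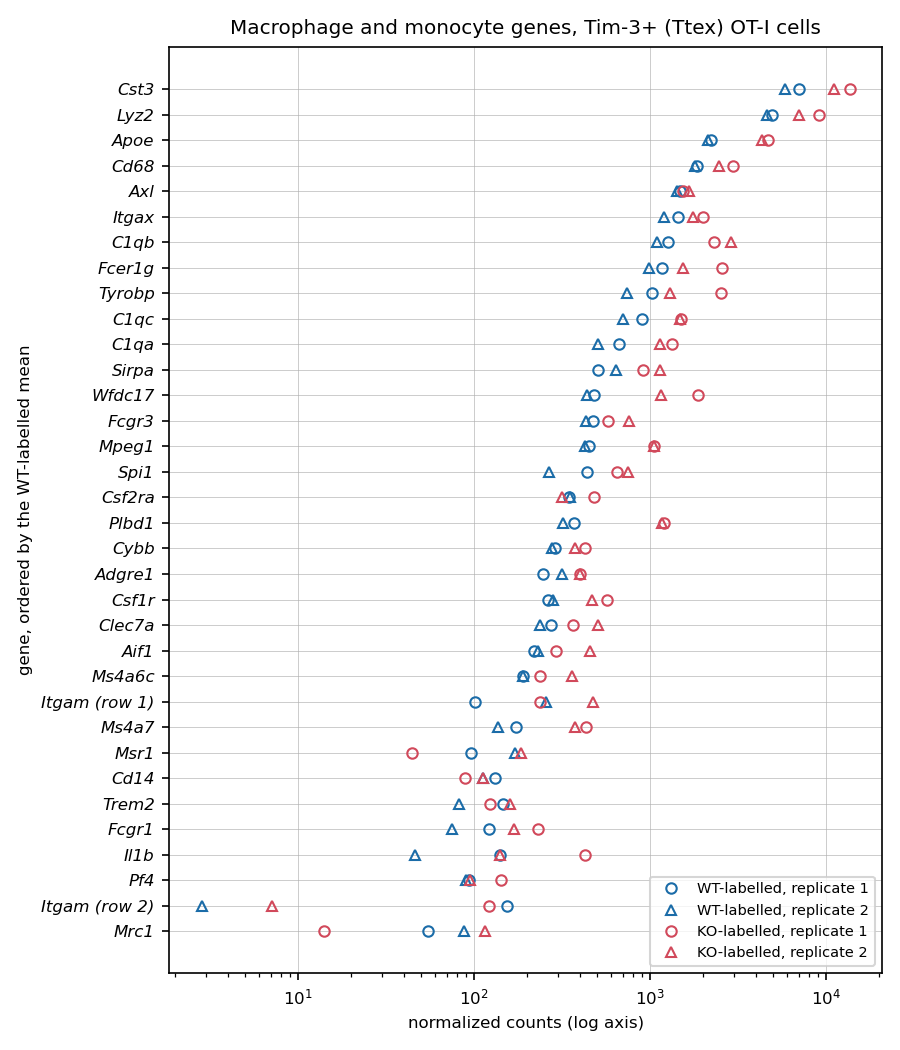
Normalized counts of each member row (log axis) in the 4 Ttex libraries, with WT-labelled libraries in blue and KO-labelled ones in red. The red points lie right of the blue ones in 26 of 34 rows, while Axl stays within 1433 and 1669 normalized counts in all 4 libraries.

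Spread among the members was also described in Ttex cells. The log2 fold changes ran from -0.75 to 1.78 with an SD of 0.56 and a median SE of 0.27, and without KO-labelled replicate 2 the SD was 0.91. The 95% interval held the list's median of 0.80 in 30 of 34 rows, was wholly above it in 2 and wholly below it in 2. The intervals were wider here than in all sorted OT-I cells. Those of edgeR, too narrow for the reason given above, held the median in 28 of 34. Median log2 fold changes by role were 1.32 for secreted proteins, 1.09 for C1q, 0.97 for Fc receptors and adaptors, 0.92 for growth factor receptors and Spi1, 0.84 for lysosomal genes, 0.62 for identity markers and 0.13 for scavenger and pattern receptors. The ratio of Lyz2 to Cst3, taken per length, was 0.641 and 0.605 in KO-labelled and 0.674 and 0.757 in WT-labelled libraries. Its groups were separate by a small margin, lower in KO-labelled libraries, and its span was narrow beside that in all sorted OT-I cells. The ratio of C1qa to Axl was 4.23 and 3.31 against 2.17 and 1.71, again with separate groups.

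The difference of the genotype effects between populations was tested on the 8 libraries together, as the fold change in Ttex minus that in all sorted OT-I cells. The tables were normalized separately, so only fold changes within a table enter the difference. The spread behind its SE and p was pooled over both tables, 1 in FPKM and 1 in counts. Adding 1 before the log shrinks changes of low genes more in FPKM than in counts, so the scales still matter. For Fcgr1 the difference was 2.05 by limma and 3.06 by edgeR. Of the 25 members tested in both populations, 20 were called higher in Ttex and 0 lower, where 10.4% of 8958 tested genes were called higher and 0.982% lower. The 20 include the 7 members that passed the mean of 1 FPKM only through the WT-labelled libraries, which favours such calls. Wfdc17 differed most, by 3.69 on the log2 scale (SE 0.35, limma adjusted p = 7.82e-05). C1qb followed with 3.22 (SE 0.23), Plbd1 with 3.18 (SE 0.26), C1qa with 3.14 (SE 0.24) and Tyrobp with 3.08 (SE 0.37). The differences of Axl (0.06, SE 0.24), Cd14 (0.06, SE 0.41), Itgax (0.54, SE 0.24), Csf2ra (0.66) and Ms4a6c (1.10, limma adjusted p = 0.0590) were not called. Without either WT-labelled library among those of all sorted cells, 13 members were called, 22 then being past the mean needed. Across the leave-one-out fits, 12 of the 20 were called in every fit that tested them, and these were the 3 C1q genes, Lyz2, Cd68, Cst3, Fcgr3, Tyrobp, Fcer1g, Wfdc17, Plbd1 and Apoe. By edgeR on recovered reads 22 of 31 members were called higher (6.9% of 11238 genes).

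Members with the lower fold change in all sorted OT-I cells tended to have the higher one in Ttex cells. Across 25 members with a fold change in both populations, which share no library, Pearson's r was -0.60 and Spearman's rho -0.65, given as a description over genes that are not independent. In 23 of the 25 the log2 fold change was below 0 in all sorted OT-I cells and above 0 in Ttex cells. Cd14 was below 0 in both and Axl above 0 in both. By edgeR, across 31 members, the values were -0.56 and -0.62.

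**Figure D3:**
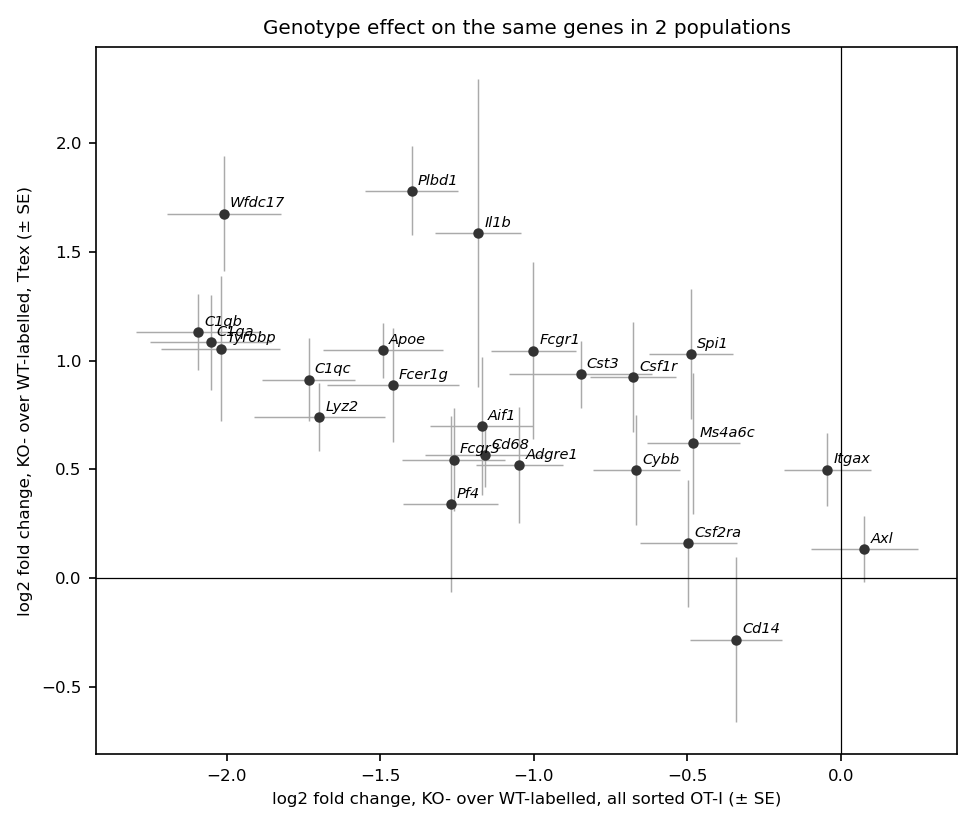
Log2 fold change, KO- over WT-labelled, of each member tested in both populations, in all sorted OT-I cells (x axis) and in Ttex cells (y axis), with bars of 1 SE. Of the 25 members 23 lie in the upper left field, C1qb and Tyrobp far out and Axl near the origin.

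The make-up of the summed member level, taken per length of transcript, differed between labels in all sorted OT-I cells. Cst3 made 54.2 and 53.8% of it in KO-labelled and 40.4 and 39.9% in WT-labelled libraries. C1qb made 3.33 and 4.70% against 7.14 and 7.71%, and Lyz2 8.18 and 7.51% against 10.7 and 10.9%. The groups were separate for all 3, with Cst3 higher and the others lower in KO-labelled libraries. In Ttex cells Cst3 made 26.6 and 27.1% in KO-labelled and 27.3 and 26.2% in WT-labelled libraries, which overlapped. The share of Lyz2 there was 17.1 and 16.4% against 18.4 and 19.8%, with separate groups, lower in KO-labelled libraries.

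**Figure D4:**
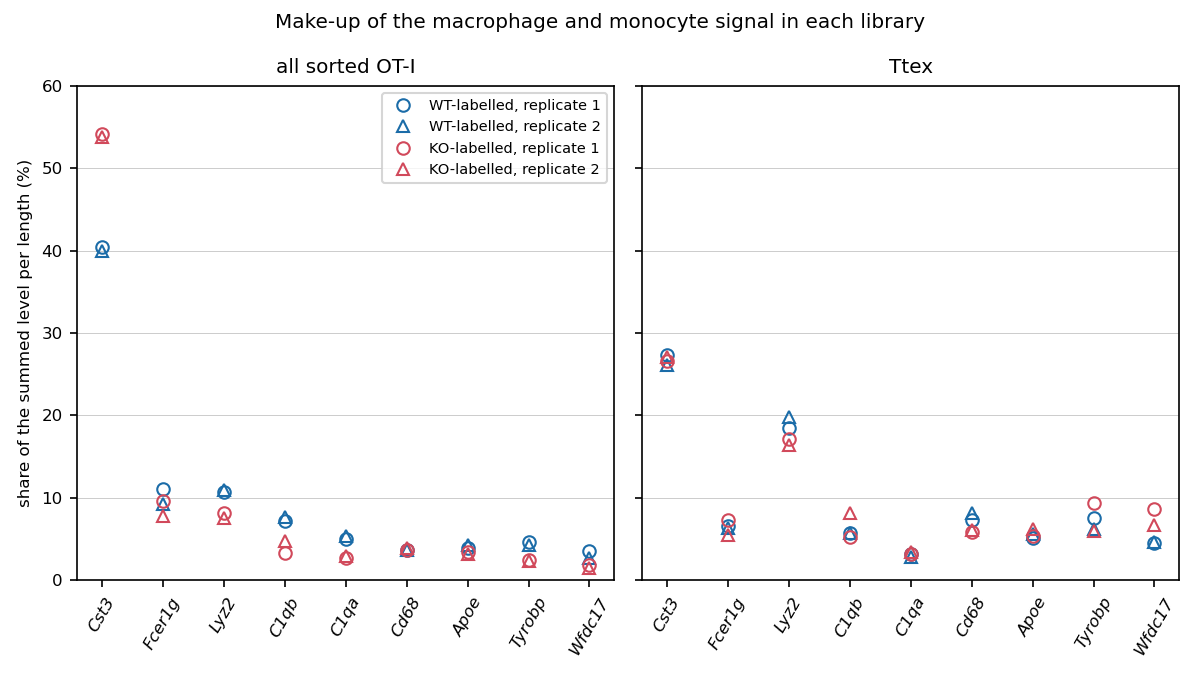
Share of the summed member level per length (percent) held by the leading members in each library of both populations, with WT-labelled libraries in blue and KO-labelled ones in red. The share of Cst3 is 39.9 to 54.2% in all sorted OT-I cells and splits by label, whereas in Ttex cells it is 26.2 to 27.3% in all 4 libraries.

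Set against 12 T cell genes in the same library, the summed member level was 10.9 and 10.4% in KO-labelled and 21.2 and 20.1% in WT-labelled libraries when all OT-I cells were sorted. In Ttex cells it was 19.2 and 17.2% in KO-labelled and 9.95 and 9.51% in WT-labelled libraries. The label with the higher share was thus WT in the one population and KO in the other, and groups were separate in both. Members known also from T, NK or melanoma cells, Cst3 among them, held much of the sum. In all sorted OT-I cells they held 242 and 185 of 323 and 254 FPKM in KO-labelled libraries. In WT-labelled ones they held 466 and 412 of 732 and 660 FPKM. In Ttex KO-labelled libraries they held 20818 and 15776 of 40527 and 32518 normalized counts per kilobase, and in WT-labelled ones 10398 and 8720 of 20356 and 17794. The T cell list itself had 3 of 12 genes called lower in all sorted OT-I cells, near the 30.4% of all tested genes (median log2 fold change -0.34, against -0.24 over all genes), and 0 of 12 called in Ttex cells (-0.02), where 0 had an unadjusted p under 0.05 in either direction.

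**Figure D5:**
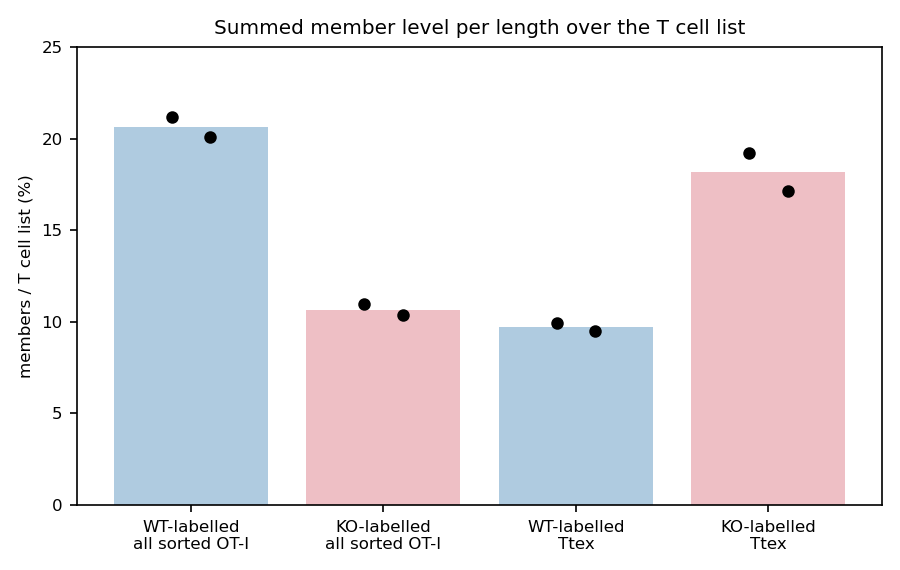
Summed level per length of the members as a percent of that of 12 T cell genes, in each library (points) with the mean of each group of 2 (bars). The bars are high for WT-labelled all sorted OT-I cells and KO-labelled Ttex cells, at 17.2 to 21.2%, and low for the other groups, at 9.51 to 10.9%; the tables were normalized separately.

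Other genes of the same cells were counted from a wider list of 58 macrophage and monocyte genes that holds no member. Among all sorted OT-I cells, 18 of its 36 tested genes were called lower and 1 higher by limma, beside 30.4% and 2.45% of all tested genes, with a median log2 fold change of -0.52 against -0.24. By edgeR on recovered reads 23 of 54 were lower and 2 higher, beside 15.8% and 11.8% of all genes. Of the genes of this list with the highest levels, the cathepsin genes Ctsd and Ctsb, which T cells also express, had log2 fold changes of -0.22 and -0.17, and Cyba, an NADPH oxidase subunit gene, -0.50, none of them called. Plac8, known in myeloid cells and lymphocytes, was called lower (-0.87, limma adjusted p = 0.00124). In Ttex cells 0 of 53 were called in either direction by limma and 1 higher by edgeR (0.119% of all genes), and the median was 0.34. At an unadjusted p under 0.05 by limma, 12 were higher and 0 lower, beside 6.78% and 7.46% of all tested genes.

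Genes of antigen presentation by MHC class II, which macrophages share with dendritic and B cells, were counted in the same way. In all sorted OT-I cells 6 of 7 were called lower, beside 30.4% of all genes (median -1.14), among them the invariant chain gene Cd74, at 130.5 and 127 FPKM in KO-labelled and 296 and 277 FPKM in WT-labelled libraries. In Ttex cells 0 of 7 were called by limma and 4 by edgeR (0.119% of all genes), and the median was 1.26. At an unadjusted p under 0.05 by limma, 6 were higher and 0 lower, beside 6.78% and 7.46% of all tested genes. There Cd74 was at 40812 and 38852 against 16993 and 16787 normalized counts, with separate groups (1.24, limma adjusted p = 0.0508).

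Markers of further cell types moved beside the members, and their part in the results was not tested. Summed levels per length are in FPKM for all sorted OT-I cells and in normalized counts per kilobase for Ttex cells. In all sorted OT-I cells dendritic cell genes had 3 of 5 called lower by limma and CD4 and regulatory T cell genes 2 of 3, beside 30.4% of all tested genes. Both NK cell genes tested by limma, Klre1 and Eomes, which CD8+ T cells also express, were called lower, whereas Klrb1c, under the mean of 1 FPKM, was called higher by edgeR (1.01, adjusted p = 0.0437). Foxp3, the factor of regulatory T cells, was at 0.458 and 0.226 FPKM against 1.90 and 1.83 FPKM (log2 fold change -1.10, limma adjusted p = 1.09e-13), with separate groups. Red blood cell genes went the other way, with 4 of 4 called higher, beside 2.45% of all genes, and a summed level of 22.3 and 15.4 against 10.3 and 8.17. Of 5 melanoma genes 4 were called higher and Mlana lower, and the summed level was 21.4 and 19.2 against 11.5 and 15.0. In Ttex cells the summed red blood cell level was 23967 and 14341 against 4551 and 2859 (median log2 fold change 2.32), and the melanoma level 19439 and 20760 against 9164 and 9119 (1.17). The summed red blood cell and melanoma levels thus stood higher in KO-labelled libraries of both populations, whereas that of the members was lower in one and higher in the other. Of the neutrophil (1 tested), mast cell and basophil (1), B cell (2) and fibroblast and endothelial genes (1), limma called none, and most were under the mean of 1 FPKM. By edgeR 4 of 8 fibroblast and endothelial genes were higher in KO-labelled all sorted OT-I cells, beside 11.8% of all genes (median 1.23), and 0 of the 4 neutrophil, 3 mast cell and 6 B cell genes tested were called.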

How the data were processed

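RNA of 8 libraries was analysed from the tables that the authors deposited, and grouping follows the labels. The members and gene lists were chosen with earlier results of these data known. Per the labels' protocols, TRIzol was used for extraction and BGI made the libraries. Per the submitters' processing notes the build was mm10, and DESeq2, RSEM, featureCounts, Bowtie2 and Trim Galore 0.4.4 are named without their roles.

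The deposited values of all sorted OT-I cells have the form of FPKM, although the header names no unit: multiplying by merged exon length (GENCODE M21) and by a library factor gave whole reads within 0.1 in 98.3 to 98.4% of values under 1000 reads (17244 genes) and in all 136 member values. The divisor of the deposited FPKM was 1.12 and 1.25 times the recovered total in KO-labelled and 0.962 and 0.951 times in WT-labelled libraries. The same table holds the authors' DESeq2 log2 fold changes, p-values and score columns (standard error and test statistic), per the file headers. The deposited Ttex values are a normalized signal, counts divided by 1 size factor per library, and 100% of them were whole reads within 0.01.

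Each population was tested alone with limma 3.58.1 (limma-trend, two-sided, R 4.3.3) on log2(value + 1), which understates changes of low genes. Genes under a mean of 1 FPKM, or of 10 normalized counts, were left out, with Benjamini-Hochberg adjustment over all tested genes and a threshold of 0.05. The difference between populations was tested in 1 limma fit with a mean per group, on genes matched by symbol. The prior degrees of freedom of limma came out infinite for all sorted OT-I cells, 4.48 for Ttex cells and 9.12 for the difference. Recovered reads were tested with edgeR 4.0.16 (quasi-likelihood, TMM). Scripts were tested on simulated data. Every member was named, with up to 4 genes of each other list by mean level. Per-length levels use merged exon lengths. Repeated names (19) in the Ttex table were kept as separate rows. Alternatives covered the pseudocount, filter, scaling, a replicate block, each library left out, edgeR, the authors' calls and the threshold. The alternatives for the spread of fold changes, apart from leaving out members known also from T, NK or melanoma cells, were chosen after seeing the data.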

Additional observations from a re-analysis of the deposited data

Results flagged for a closer look

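The genotype effect differed between the populations for 20 members by the limma test of the difference itself, the log2 fold change in Ttex cells minus that in all sorted OT-I cells. Among them C1qc, Csf1r, Adgre1, Spi1, Fcgr1, Cybb and Il1b passed the mean of 1 FPKM only through the WT-labelled libraries. The difference was 3.69 for Wfdc17, 3.22 for C1qb, 3.18 for Plbd1, 3.14 for C1qa and 3.08 for Tyrobp. It was 2.77 for Il1b, 2.65 for C1qc, 2.54 for Apoe, 2.44 for Lyz2, 2.35 for Fcer1g and 2.05 for Fcgr1. The smaller differences were 1.87 for Aif1, 1.81 for Fcgr3, 1.79 for Cst3, 1.72 for Cd68, 1.61 for Pf4, 1.60 for Csf1r, 1.57 for Adgre1, 1.52 for Spi1 and 1.16 for Cybb. Each is positive because the member was lower in KO-labelled all sorted OT-I cells and higher in KO-labelled Ttex cells on average. The calls of 8 of them were lost when 1 library was left out, with a highest limma adjusted p of 0.0699 for Adgre1, 0.0599 for Aif1, 0.0587 for Csf1r, 0.148 for Cybb, 0.0876 for Fcgr1, 0.142 for Il1b, 0.165 for Pf4 and 0.104 for Spi1. Centring on the median gene left 16 members called, without Il1b (adjusted p = 0.0673), Cybb (0.0700), Pf4 (0.0586) and Spi1 (0.0543). Il1b also lost the call without the filter (0.0638) and Pf4 with edgeR (0.0556). Groups of 2 libraries are too small for a test of outlying samples.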

How the results depend on the processing

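The count of 23 members called lower in all sorted OT-I cells was 18 to 23 with 1 library left out and 20 to 29 under the other settings. Spi1, Ms4a6c and Csf2ra lost the call with centring on the median gene. Of all tested genes, 15.8% were called lower by edgeR, 15.4% by the authors and 36.2% at a limma adjusted p under 0.1. Shares over all genes were not counted with a library left out, centring, another pseudocount or no filter, here or for the difference between populations.

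In Ttex cells the count of 0 became 15 higher with the replicate block (3.61% of all genes). It was 1 with edgeR (0.119%) and 2 at an adjusted p under 0.1 (0.143%). Replicate numbers are not tied to animals by the labels. The differences of replicates 1 and 2 correlated at 0.299 between genotypes in all sorted OT-I cells and 0.139 in Ttex cells. With the replicate block 24 members were lower in all sorted OT-I cells, beside 36.7% of all tested genes. A difference called higher in Ttex was found for 21, beside 19.3% of all tested genes. The count of 20 differences was 13 to 23 with 1 library left out, 16 with centring and 21 or 22 otherwise.

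The SD of the members' fold changes in all sorted OT-I cells, 0.61, was 0.70 at a pseudocount of 0.1, 0.63 without the filter, 0.72 with edgeR, 0.72 in the authors' deposited table, 0.57 without members known also from T, NK or melanoma cells, and 0.59 to 0.69 with 1 library left out. In Ttex cells it was 0.59 to 0.91 with 1 library left out.

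Reversals concern uncalled values. In all sorted OT-I cells Itgax was 0.20 with centring and 0.014 with edgeR, and Axl was -0.14 to 0.29 with 1 library left out. In Ttex cells the leave-one-out ranges were -2.23 to 0.73 for Mrc1, -1.52 to 0.52 for Msr1, -0.14 to 0.46 for Csf2ra, -0.041 to 0.78 for Trem2 and -2.30 to 3.04 for the second Itgam row, which was -0.24 with edgeR. The difference for Cd14 was -0.11 with centring and -0.12 to 0.23 with 1 library left out, and that for Axl was -0.11 with centring, -0.077 with edgeR and -0.16 to 0.27 with 1 library left out. The cause was not tested for any of these. Members under 1 FPKM in all sorted OT-I cells rest on few reads, and each group has 2 libraries.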
